A study of Mus musculus with 21 samples.

Results

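The phagocyte NADPH oxidase was followed through its genes Cybb, Cyba, Ncf1, Ncf4 and Rac2 in RNA-seq counts of mouse bone marrow c-kit+ cells. These 5 genes were taken by symbol from a table of 54532 genes, and all 5 were among the 16262 genes with enough counts to test. The libraries came from C57BL/6 mice of 4 genotypes, with 3 libraries of Asxl1-/-Jak2V617F, 3 of Jak2V617F, 2 of Asxl1-/- and 3 of WT. Asxl1 is a chromatin regulator and partner of BAP1, an enzyme that takes ubiquitin off histone H2A. Jak2V617F is a constitutively active kinase, the common driver of myeloproliferative neoplasms. Femurs and tibias were flushed, red cells were lysed, and cells that bound CD117 beads were kept, so all 4 groups share this enrichment for the stem cell factor receptor c-kit. The titles of the Asxl1-/- libraries carry the abbreviation AV, which the labels do not explain, and their genotype label was followed. The labels give no promoter, Cre driver, age or sex for either allele, and do not say whether replicates are separate animals, so the spread that the p-values rest on may be technical in part.

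The oxidase moves electrons from NADPH across a membrane onto oxygen and so makes superoxide, the first product of the respiratory burst with which neutrophils and macrophages kill microbes. Its catalytic core is a membrane dimer of the Cybb and Cyba products (gp91phox and p22phox), which is silent until cytosolic proteins, p47phox (Ncf1) and p40phox (Ncf4) among them, and a Rac GTPase join it. Loss of gp91phox, p22phox or p47phox in people causes chronic granulomatous disease. The genes are switched on as myeloid progenitors mature, and factors such as PU.1 and the C/EBP proteins are known to drive several of them.

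Of the 5 genes, Cybb, Cyba and Ncf1 have a start window in the RefSeq promoter set. The windows of 270 bases are shown for these 3 genes, the membrane pair and the p47phox gene. Each holds 250 bases before the annotated start and the first 20 after it, on the minus strand of GRCm38.p6, printed 5′ to 3′. The Cybb window is chrX:9469305-9469574, the Cyba window chr8:122432921-122433190 and the Ncf1 window chr5:134229606-134229875. The Cyba and Ncf1 windows lie at the 5′ ends of the deposited gene intervals, whereas the Cybb window lies inside the deposited Cybb interval, whose 5′ end is at 9487771, so the annotations place that start differently. Capitals mark matches to the 3 motifs searched on both strands.
Cybb: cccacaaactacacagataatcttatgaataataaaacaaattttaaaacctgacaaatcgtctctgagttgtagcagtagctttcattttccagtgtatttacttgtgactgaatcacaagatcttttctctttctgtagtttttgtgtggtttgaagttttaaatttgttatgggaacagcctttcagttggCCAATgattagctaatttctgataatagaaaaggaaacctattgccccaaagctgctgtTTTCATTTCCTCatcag
Cyba: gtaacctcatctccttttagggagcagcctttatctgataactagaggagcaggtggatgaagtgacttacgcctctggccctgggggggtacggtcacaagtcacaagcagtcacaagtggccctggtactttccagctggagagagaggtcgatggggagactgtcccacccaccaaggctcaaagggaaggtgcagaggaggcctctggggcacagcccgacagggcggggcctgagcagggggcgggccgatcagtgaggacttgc
Ncf1: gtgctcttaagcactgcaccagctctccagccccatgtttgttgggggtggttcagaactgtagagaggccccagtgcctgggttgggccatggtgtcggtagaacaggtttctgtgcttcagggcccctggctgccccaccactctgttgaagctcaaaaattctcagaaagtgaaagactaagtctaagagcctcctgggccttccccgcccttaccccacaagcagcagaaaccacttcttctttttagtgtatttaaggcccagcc
The motifs were GAGGAA, a core bound by PU.1, GGAA followed after 2 bases by GAAA, the composite of PU.1 with an interferon regulatory factor, and CCAAT. Among 32851 windows of this length from all genes, 25.1% held GAGGAA, 2.47% held the composite and 35.4% held CCAAT. The Cybb window held all 3, with CCAAT at bases -56 to -52 from the start on the plus strand of the gene. Its composite (bases 4 to 13) and GAGGAA (bases 10 to 15) lie on the opposite strand and overlap each other. The Cyba and Ncf1 windows held none of these letters.

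Each library had 16198011 to 19196283 counts, and no oxidase gene had fewer than 398 counts in any library, so counting error is small beside the 19.7% common biological coefficient of variation. Kit lay between 218.8 and 338.3 CPM (library-size-scaled counts, with TMM factors) in every library. The targeted gene Asxl1 was still counted in its knockouts, with 93.51, 95.14 and 100.4 CPM in the Asxl1-/-Jak2V617F libraries against 195.9, 142.0 and 131.8 CPM in the Jak2V617F libraries. It had 89.04 and 97.04 CPM in the Asxl1-/- libraries, and 162.0, 163.9 and 161.1 CPM in the WT libraries. Jak2 had 86.1, 97.26 and 93.14 CPM in the Asxl1-/-Jak2V617F libraries, 129, 121.5 and 127.3 CPM in the Jak2V617F libraries, 99.83 and 103 CPM in the Asxl1-/- libraries and 71.67, 83.4 and 75.94 CPM in the WT libraries, which says nothing of the V617F allele itself. Reads of Y-linked genes (176 to 263 CPM) were present in the Asxl1-/- libraries and in Jak2V617F replicate 2, and Xist in the other 8. Sex and the Asxl1-/- genotype therefore cannot be told apart within that group, and Cybb is X-linked. Only the Jak2V617F group holds both kinds of library, so a term for sex rests on its replicate 2 against the rest of that group. Over all genes, the TMM scaling left the median log2 change between -0.053 and -0.002 in the 5 pairwise comparisons. Upper-quartile scaling moved it by -0.133 for Asxl1-/-Jak2V617F against Jak2V617F and took the share of called genes that were higher to 42.2%, against 55.3% with TMM. That share was 37.9% against 50.1% for Asxl1-/- against WT and 40.3% against 55.1% for Asxl1-/-Jak2V617F against WT.

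All 5 oxidase genes were low in Jak2V617F cells and closer to the WT level in Asxl1-/-Jak2V617F cells. Their log2 changes in Asxl1-/-Jak2V617F against WT were all below 0, from -0.53 for Cybb to -0.07 for Rac2, and none passed the test. Together the 5 genes held 0.227 to 0.264% of all counts in Asxl1-/-Jak2V617F libraries, 0.0328 to 0.0543% in Jak2V617F libraries, 0.286 to 0.287% in Asxl1-/- libraries and 0.259 to 0.340% in WT libraries. In bulk RNA, fewer cells that express a gene and less of its RNA per cell cannot be told apart.

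**Figure D1:**
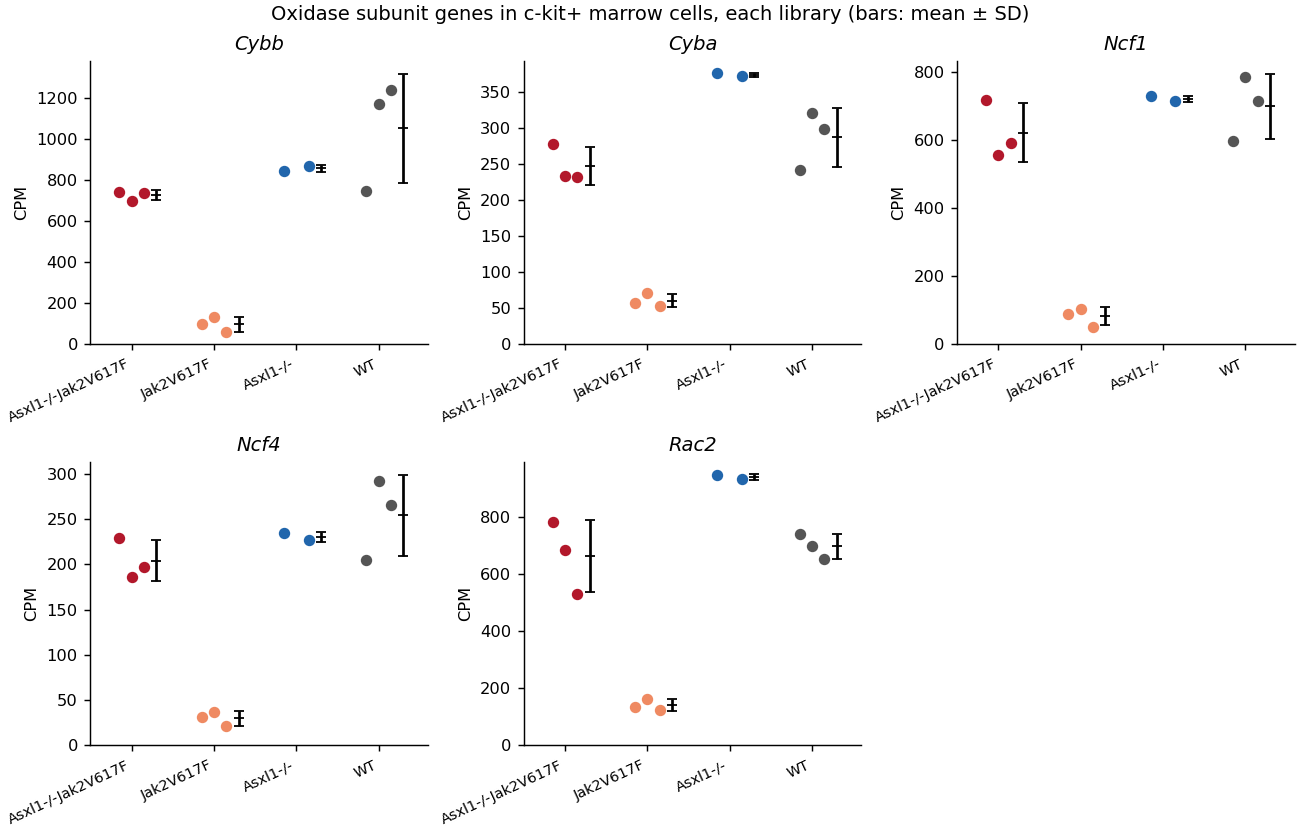
CPM of the 5 oxidase genes in each of the 11 libraries (points), by genotype, with the mean and SD beside the points. The 3 Jak2V617F points lie below every other point in all 5 panels, for example 60.66 to 134.7 CPM for Cybb against 700.0 CPM or more in each other library.

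Cybb (ENSMUSG00000015340, mm10 chromosome X, 9435252 to 9487771, minus strand) encodes the chain that carries the electrons. Its level was 740.9, 700.0 and 739.0 CPM in the Asxl1-/-Jak2V617F libraries and 99.41, 134.7 and 60.66 CPM in the Jak2V617F libraries. In the single Asxl1-/- genotype it was 845.7 and 867.0 CPM, and in WT it was 747.9, 1168 and 1238 CPM. The Asxl1-/-Jak2V617F libraries were tightly grouped just under the lowest WT library, whereas the Jak2V617F libraries stood far below all others. By edgeR's quasi-likelihood test with Benjamini-Hochberg adjustment over all genes, Cybb rose by 2.89 ± 0.28 on the log2 scale (SE) in Asxl1-/-Jak2V617F against Jak2V617F cells (adjusted p = 2.54e-05). In Jak2V617F against WT cells it fell by 3.42 ± 0.28 (adjusted p = 7.71e-06). The mean order was WT, Asxl1-/-, Asxl1-/-Jak2V617F and Jak2V617F, and only the last step passed the test.

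Cyba (ENSMUSG00000006519, mm10 chromosome 8, 122424776 to 122432930, minus strand) encodes the small chain that stabilises gp91phox and docks p47phox. It had 277.8, 232.9 and 231.5 CPM in Asxl1-/-Jak2V617F libraries and 58.02, 70.58 and 53.33 CPM in Jak2V617F libraries. The Asxl1-/- libraries had 375.8 and 371.7 CPM, and the WT libraries 241.9, 320.7 and 298.1 CPM. Jak2V617F was again the low group and Asxl1-/- the highest, with the other groups overlapping between them. Cyba rose by 2.03 ± 0.13 in Asxl1-/-Jak2V617F against Jak2V617F cells (log2, edgeR, adjusted p = 5.63e-07) and fell by 2.24 ± 0.13 in Jak2V617F against WT cells (adjusted p = 2.67e-07). These were the smallest changes among the 5 genes, at 4.08-fold and 4.73-fold.

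Ncf1 (ENSMUSG00000015950, mm10 chromosome 5, 134220053 to 134229625, minus strand) encodes p47phox, the organiser that carries the cytosolic complex to the membrane once it is phosphorylated. Its level was 717.7, 556.4 and 589.6 CPM in Asxl1-/-Jak2V617F libraries and 90.28, 105.0 and 52.27 CPM in Jak2V617F libraries. It was 726.9 and 713.7 CPM in Asxl1-/- libraries and 595.9, 784.9 and 713.8 CPM in WT libraries. Outside the Jak2V617F libraries, which lay apart and low, the genotypes overlapped. Ncf1 rose by 2.91 ± 0.23 in Asxl1-/-Jak2V617F against Jak2V617F cells (log2, edgeR, adjusted p = 5.83e-06) and fell by 3.08 ± 0.23 in Jak2V617F against WT cells (adjusted p = 3.48e-06). Ncf1 overlaps Gtf2ird2 on the opposite strand by 4303 bases, and whether the counting used strand is not given in the sources used here. Gtf2ird2 had 366 to 1175 counts per library.

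Ncf4 (ENSMUSG00000071715, mm10 chromosome 15, 78244801 to 78262580, plus strand) encodes p40phox, which binds phosphatidylinositol 3-phosphate on phagosomes. It stood at 229.6, 185.6 and 196.9 CPM in the Asxl1-/-Jak2V617F libraries and at 31.94, 37.13 and 20.99 CPM in Jak2V617F libraries. The Asxl1-/- libraries had 234.4 and 226.8 CPM and the WT libraries 205.0, 292.1 and 266.0 CPM. Its profile followed that of Ncf1, with a low Jak2V617F group and overlap among the rest. Ncf4 rose by 2.76 ± 0.20 in Asxl1-/-Jak2V617F against Jak2V617F cells (log2, edgeR, adjusted p = 3.02e-06) and fell by 3.08 ± 0.20 in Jak2V617F against WT cells (adjusted p = 1.37e-06).

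Rac2 (ENSMUSG00000033220, mm10 chromosome 15, 78559167 to 78572783, minus strand) encodes the blood-cell Rac GTPase that activates the oxidase in neutrophils. It had 781.8, 683.6 and 530.5 CPM in Asxl1-/-Jak2V617F libraries and 133.2, 164.3 and 125.0 CPM in Jak2V617F libraries. The Asxl1-/- libraries had 948.6 and 934.2 CPM, and the WT libraries 740.9, 699.1 and 653.3 CPM. The Asxl1-/-Jak2V617F libraries were the most spread and enclosed the WT range, while Asxl1-/- stood above both. Rac2 rose by 2.24 ± 0.14 in Asxl1-/-Jak2V617F against Jak2V617F cells (log2, edgeR, adjusted p = 5.59e-07) and fell by 2.31 ± 0.15 in Jak2V617F against WT cells (adjusted p = 4.13e-07).

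By count, 5 of 5 oxidase genes rose in Asxl1-/-Jak2V617F against Jak2V617F cells, where 24.5% of all tested genes rose and 19.8% fell, and the libraries overlapped for none of the 5, where 28.4% of all tested genes were higher without overlap. Likewise 5 of 5 fell in Jak2V617F against WT cells, where 29.2% of all genes fell and 24.4% rose, again with no overlap in any of the 5, against 33.3% of all genes lower without overlap. The median log2 changes of the 5 genes were 2.76 and -3.08, beside -0.007 and -0.053 over all genes. Both comparisons use the same Jak2V617F libraries, so their values are set side by side and are not independent. All 5 calls in each comparison were kept in every one of the 14 alternatives run. Leaving out any single library of the genotypes compared gave log2 changes between 2.63 and 3.17 for Cybb in the first comparison. For Cyba they lay between 1.93 and 2.14. With a term for sex the changes in the first comparison were 3.18 for Cybb, 2.15 for Cyba, 3.12 for Ncf1, 2.95 for Ncf4 and 2.37 for Rac2.

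The 3 Jak2V617F libraries kept 1 order for all 5 genes, with replicate 2 highest and replicate 3 lowest. The coefficient of variation in that group was 37.7% for Cybb, 33.0% for Ncf1 and 27.4% for Ncf4, but 14.7% for both Cyba and Rac2.

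The 2 remaining contrasts with WT gave no call. In Asxl1-/- against WT cells none of the 5 genes passed, where 22.5% of all genes did (11.3% higher and 11.2% lower). The log2 changes in that contrast ran from -0.30 ± 0.29 for Cybb (edgeR, adjusted p = 0.495) to 0.43 ± 0.15 for Rac2 (adjusted p = 0.0628). Cyba and Rac2 were higher in both Asxl1-/- libraries than in every WT library, as were 28.7% of all genes. Cyba stood at 0.38 ± 0.14 (adjusted p = 0.0699). The pair lies close to the threshold: Rac2 passed with DESeq2, with no filter on low counts and with the compared genotypes fitted alone, and Cyba passed with no filter. With a term for sex, Cyba and Rac2 stood at 0.04 and 0.08, and Cybb at -1.05 with an adjusted p of 0.133. That term rests on Jak2V617F replicate 2 alone, the highest of its group for all 5 genes. These values therefore carry the deviation of that library into a contrast it is not part of.

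In Asxl1-/-Jak2V617F against WT cells none of the 5 genes passed either, where 15.1% of all genes did (8.30% higher and 6.76% lower). The values were -0.53 ± 0.26 for Cybb (edgeR, adjusted p = 0.181), -0.32 ± 0.19 for Ncf4 (adjusted p = 0.26), -0.21 ± 0.13 for Cyba (adjusted p = 0.256), -0.17 ± 0.22 for Ncf1 (adjusted p = 0.615) and -0.07 ± 0.14 for Rac2 (adjusted p = 0.759). All 5 were thus below 0, and for Cybb every Asxl1-/-Jak2V617F library was below every WT library, as for 19.4% of all genes. The sign of the Rac2 value turned to 0.07 without Asxl1-/-Jak2V617F replicate 3 and to 0.01 without WT replicate 1. A value that misses the threshold does not show that the levels are equal.

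In Asxl1-/-Jak2V617F against Asxl1-/- cells Cyba fell by 0.60 ± 0.14 (log2, edgeR, adjusted p = 0.0315), the only call among the 5, where 2.22% of all genes fell and 3.31% rose. This call was lost with the sex term (-0.25, adjusted p = 0.672), with the replicate block (-0.56, adjusted p = 0.0667) and without Asxl1-/-Jak2V617F replicate 2 or 3 or either Asxl1-/- library. Rac2 was also lower in all 3 Asxl1-/-Jak2V617F libraries than in both Asxl1-/- libraries, as was Cybb, a pattern of 22.8% of all genes. Rac2 stood at -0.50 ± 0.15 (edgeR, adjusted p = 0.0829) and Cybb at -0.24 ± 0.29 (adjusted p = 0.687). The sex term that lost the Cyba call rests on Jak2V617F replicate 2 alone, which belongs to neither of these genotypes.

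**Figure D2:**
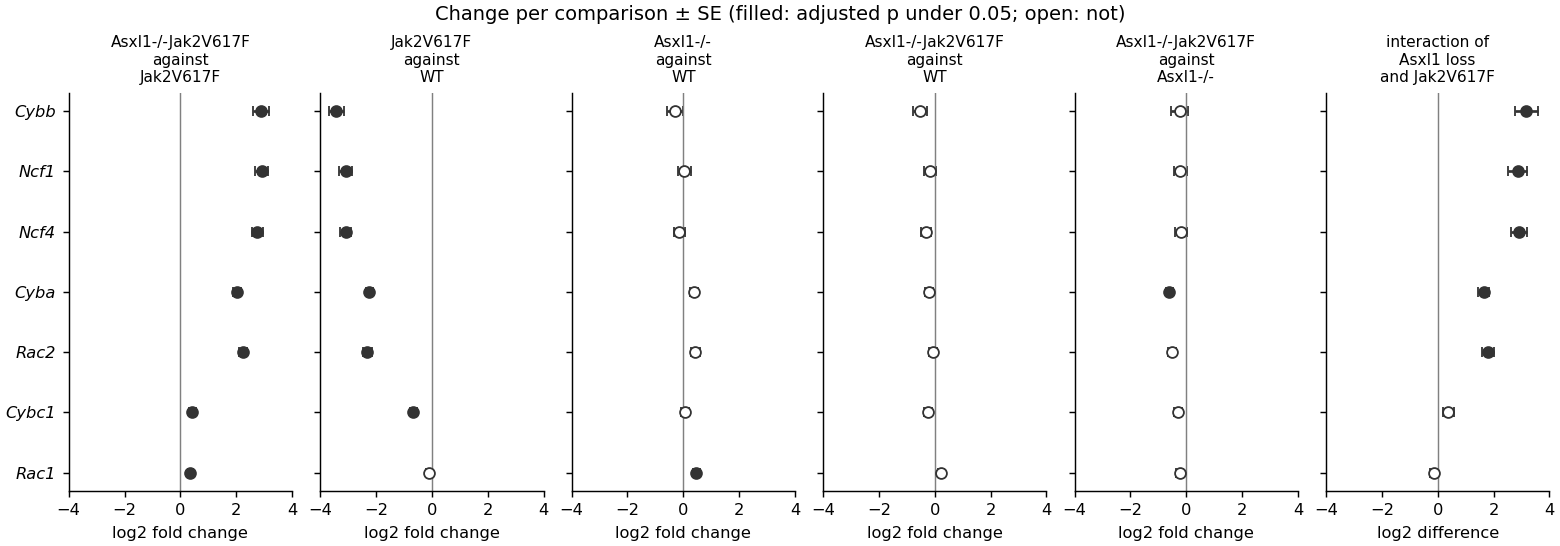
Log2 fold change ± SE of the 5 oxidase genes, Cybc1 and Rac1 in the 5 comparisons and the interaction (filled points: edgeR adjusted p under 0.05). The 5 genes lie between 2.03 and 2.91 in Asxl1-/-Jak2V617F against Jak2V617F and between -3.42 and -2.24 in Jak2V617F against WT, while Rac1 lies at 0.36 and -0.12.

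Whether Asxl1 loss acted differently on the Jak2V617F and WT backgrounds was tested as an interaction, the log2 effect of Asxl1 loss with Jak2V617F minus that without it. The difference was positive and passed for 5 of 5 oxidase genes, where 23.7% of all genes were called in that direction. It was 3.18 ± 0.41 for Cybb (edgeR, adjusted p = 0.000348), 2.90 ± 0.29 for Ncf4 (adjusted p = 7.18e-05) and 2.87 ± 0.34 for Ncf1 (adjusted p = 0.000191). The p22phox and GTPase genes had smaller differences, 1.65 ± 0.19 for Cyba (adjusted p = 1e-04) and 1.81 ± 0.21 for Rac2 (adjusted p = 1e-04). All 5 calls held in each of the 18 alternatives run. The interaction uses the same Jak2V617F libraries as the comparisons above and is not independent of them. Both Asxl1-/- libraries held Y-linked reads and no WT library did. Sex and genotype therefore cannot be told apart in the effect without Jak2V617F.

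The genes did not move by equal amounts, which changes the make-up of the summed oxidase message. Per length, as RPKM (CPM per kilobase of the deposited gene length), the 5 genes summed to 779.4 to 956.5 in Asxl1-/-Jak2V617F, 126.7 to 191.1 in Jak2V617F, 1115 to 1127 in Asxl1-/- and 864.5 to 1094 in WT libraries. Cyba had the highest mean RPKM in each genotype, with 238 in Asxl1-/-Jak2V617F, 58.4 in Jak2V617F, 360 in Asxl1-/- and 276 in WT. Mean RPKM ran downwards in each genotype from Cyba through Rac2, Ncf1 and Cybb to Ncf4. The per-library ranges of neighbours in this order overlapped in part. In WT each gene overlapped with the next, and Rac2 stood above Cyba in WT replicate 1. The Asxl1-/-Jak2V617F ranges overlapped for Cyba with Rac2 and for Rac2 with Ncf1, the Jak2V617F ranges for every neighbouring pair but Rac2 and Ncf1, and the Asxl1-/- ranges for none. Cyba took 28.1 ± 0.458% of the summed RPKM in Asxl1-/-Jak2V617F, 37.2 ± 2.83% in Jak2V617F, 32.1% in both Asxl1-/- libraries and 27.6 ± 0.656% in WT. Cybb took 14.8 ± 1.5% in Asxl1-/-Jak2V617F, 10.4 ± 1.98% in Jak2V617F, 13.2 ± 0.354% in Asxl1-/- and 18.0 ± 2.87% in WT.

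The ratio within the membrane pair shows the same on the log2 scale of CPM. Cybb to Cyba was 1.41, 1.59 and 1.67 in Asxl1-/-Jak2V617F, 0.78, 0.93 and 0.19 in Jak2V617F, 1.17 and 1.22 in Asxl1-/- and 1.63, 1.86 and 2.05 in WT libraries. Jak2V617F libraries were lowest and did not overlap with any other genotype. The mean log2 ratio differed by 0.93 for Asxl1-/-Jak2V617F minus Jak2V617F and by -1.22 for Jak2V617F minus WT. Each contrast had an exact two-sided permutation p of 0.1, the smallest that 3 against 3 libraries allow, and 0.2 after adjustment over the 10 ratio tests run. For Asxl1-/- minus WT the log2 ratio differed by -0.65 with no overlap (exact permutation p = 0.2, the smallest that 2 against 3 allow). These designs cannot reach the threshold of 0.05.

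**Figure D3:**
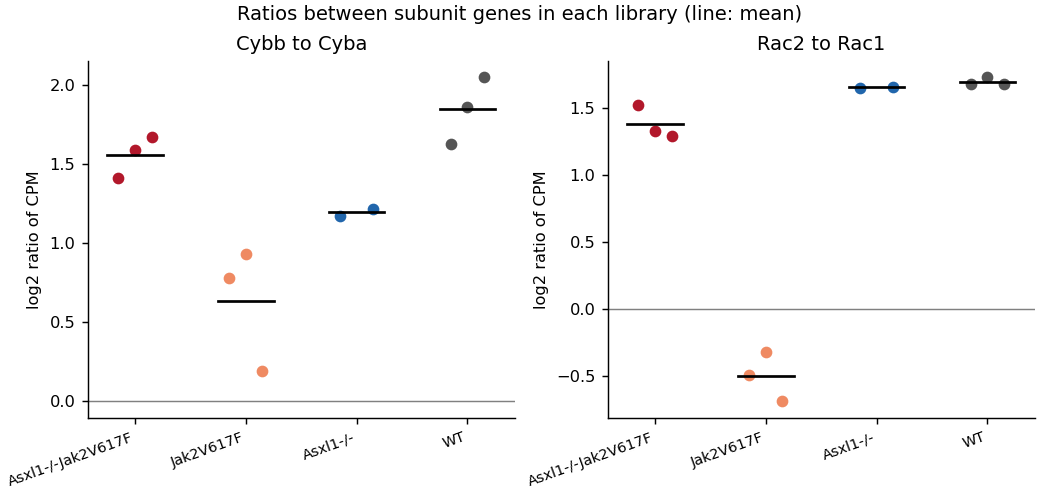
Log2 ratio of CPM of Cybb to Cyba (left) and of Rac2 to Rac1 (right) in each library, with the mean per genotype as a line. Jak2V617F libraries lie between 0.19 and 0.93 on the left and between -0.69 and -0.32 on the right, below every other library in both panels.

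Rac1, the widely expressed relative of Rac2 that can serve the oxidase in macrophages, did not share the swing. It had 273.1, 271.6 and 216.5 CPM in Asxl1-/-Jak2V617F libraries, 186.8, 205.8 and 202.0 CPM in Jak2V617F, 302.5 and 296.0 CPM in Asxl1-/- and 231.9, 211.0 and 204.3 CPM in WT libraries. Rac1 rose by 0.36 ± 0.10 in Asxl1-/-Jak2V617F against Jak2V617F cells (log2, edgeR, adjusted p = 0.0104), a call lost with upper-quartile scaling and without Asxl1-/-Jak2V617F replicate 2. It stood at -0.12 ± 0.10 in Jak2V617F against WT cells (adjusted p = 0.307).
The log2 ratio of Rac2 to Rac1 was 1.52, 1.33 and 1.29 in Asxl1-/-Jak2V617F, -0.49, -0.32 and -0.69 in Jak2V617F, 1.65 and 1.66 in Asxl1-/- and 1.68, 1.73 and 1.68 in WT libraries. Rac1 thus had the higher CPM of the pair in Jak2V617F libraries and Rac2 in the other 8. Per length this order did not hold, since Rac2 had 42.92, 52.96 and 40.27 RPKM in the Jak2V617F libraries and Rac1 41.55, 45.78 and 44.94 RPKM, so Rac2 was above Rac1 in replicates 1 and 2 and below it in replicate 3. The log2 ratio differed by 1.88 for Asxl1-/-Jak2V617F minus Jak2V617F and by -2.19 for Jak2V617F minus WT (exact permutation p = 0.1 each, the smallest possible, and 0.2 adjusted).

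Likeness of profile was measured as the root mean square distance of gene-centred log2 CPM over the 11 libraries, among all tested genes, so depth and genotype are shared by every pair. For Ncf1 the nearest genes were Ncf4 (0.10) and Pygl (0.12), and for Ncf4 they were Ncf1 (0.10), Pygl (0.10) and Fmnl3 (0.11). Ncf1 and Ncf4 were thus each other's closest match. Cybb was nearest to B430306N03Rik (0.13), Ceacam1 (0.14) and Padi4 (0.14), with Ncf4 in place 6 at 0.18. Its membrane partner Cyba was at 0.51, in place 380 among the 16262 tested genes. Cyba was nearest to Glrx, Hexa and Rgs19 (0.11 each) and Rac2 to Cotl1 (0.07), Sh3bgrl3 (0.10) and Vim (0.12). Cyba had Rac2 in place 14 at 0.16.

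The genes that assemble with, switch on and feed the oxidase were counted from lists chosen for their roles. Beside the counts of these lists, 24.5% of all tested genes rose and 19.8% fell in Asxl1-/-Jak2V617F against Jak2V617F cells. In Jak2V617F against WT cells 24.4% of all tested genes rose and 29.2% fell. Of 7 assembly partners, 6 rose and 1 fell in Asxl1-/-Jak2V617F against Jak2V617F cells, with a median log2 change of 0.43 against -0.007 over all genes, and 1 rose and 5 fell in Jak2V617F against WT cells (median -0.66 against -0.053). Besides Rac1 they include Cybc1, a chaperone that the gp91phox and p22phox dimer needs. Hvcn1, the voltage-gated proton channel that offsets the charge the oxidase moves, rose by 2.57 ± 0.21 in Asxl1-/-Jak2V617F against Jak2V617F cells (log2, edgeR, adjusted p = 6.09e-06) and fell by 2.74 ± 0.21 in Jak2V617F against WT cells (adjusted p = 3.39e-06). The calprotectin genes S100a8 and S100a9, which are also on the late neutrophil list, rose by 3.09 ± 0.32 and 3.10 ± 0.38 in the first comparison, and their log2 changes in Jak2V617F against WT cells were -3.47 ± 0.33 and -3.72 ± 0.39. These 3 genes were named after their values were seen. Cybc1 had 98.84, 94.06 and 89.24 CPM in Asxl1-/-Jak2V617F libraries, 60.98, 88.83 and 60.13 CPM in Jak2V617F, 108.3 and 121.0 CPM in Asxl1-/- and 104.8, 115.7 and 112.2 CPM in WT libraries. It fell by 0.66 ± 0.13 in Jak2V617F against WT cells (log2, edgeR, adjusted p = 0.00126) and rose by 0.43 ± 0.13 in Asxl1-/-Jak2V617F against Jak2V617F cells (adjusted p = 0.0212), though that call was lost under 6 of the alternatives run. Prdx6, a peroxiredoxin that moved against the rest and is named after its values were seen, fell by 0.45 ± 0.14 in Asxl1-/-Jak2V617F against Jak2V617F cells (adjusted p = 0.0196) and rose by 0.71 ± 0.14 in Jak2V617F against WT cells (adjusted p = 0.00101).

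Other members of the NOX family, which are catalytic subunits or their partners outside phagocytes, were scarcely counted. Their 9 genes summed to at most 1.63 CPM in any library, only Noxo1 passed the filter for testing, and it did not pass the test in any of the 5 comparisons. Nox3, Duoxa1 and Duoxa2 had 0 counts in all 11 libraries, which allows a level of up to 0.185 CPM in the shallowest library (3 counts, counting error only).

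Of 11 regulators of Rac, which load it with GTP, turn it off or hold it in the cytosol, 9 rose and 1 fell in Asxl1-/-Jak2V617F against Jak2V617F cells (median 1.64), and 0 rose and 9 fell in Jak2V617F against WT cells (median -1.71). Arhgdib, the blood-cell inhibitor that keeps Rac soluble, averaged 954 ± 73.0 CPM in the Asxl1-/-Jak2V617F group and 128 ± 19.7 CPM in the Jak2V617F group (SD, n = 3 each) and rose by 2.89 ± 0.14 (log2, edgeR, adjusted p = 1.3e-07). The exchange factors Vav3, Tiam1 and Vav1 rose by 2.55 ± 0.16, 1.94 ± 0.11 and 1.62 ± 0.10. In Jak2V617F against WT cells the log2 changes were -3.04 ± 0.14 for Arhgdib, -2.52 ± 0.16 for Vav3, -2.01 ± 0.11 for Tiam1 and -1.70 ± 0.10 for Vav1.

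Of 14 tested genes of the kinase pathways that prime p47phox or make its lipid signals, 13 rose and 0 fell in Asxl1-/-Jak2V617F against Jak2V617F cells (median 0.83). In Jak2V617F against WT cells 1 rose and 11 fell (median -0.91). Their changes were smaller than those of the subunits. Prkcd, the protein kinase C delta that phosphorylates p47phox, rose by 1.34 ± 0.15 (log2, edgeR, adjusted p = 2.42e-05), Pak1 by 1.18 ± 0.14, and the phosphoinositide 3-kinase genes Pik3cd and Pik3cg by 1.11 ± 0.14 and 1.01 ± 0.12. Set against WT, Jak2V617F cells had log2 changes of -1.56 ± 0.15 for Prkcd, -1.05 ± 0.14 for Pak1, -1.03 ± 0.14 for Pik3cd and -1.30 ± 0.12 for Pik3cg.

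Of 13 phagocyte receptors that trigger or prime the burst, 12 rose and 0 fell in Asxl1-/-Jak2V617F against Jak2V617F cells (median 2.31), and 13 fell in Jak2V617F against WT cells (median -2.58). C5ar1, the receptor for complement C5a, averaged 40.2 ± 6.54 CPM in the Asxl1-/-Jak2V617F group and 5.01 ± 2.28 CPM in the Jak2V617F group and rose (edgeR, adjusted p = 5.76e-05). Both chains of the GM-CSF receptor rose, Csf2rb by 2.31 ± 0.21 and Csf2ra by 1.83 ± 0.16, as did the beta-2 integrin Itgb2 by 1.65 ± 0.19. The falls in Jak2V617F against WT cells were -3.25 ± 0.33 for C5ar1, -2.25 ± 0.20 for Itgb2, -2.20 ± 0.16 for Csf2ra and -1.81 ± 0.21 for Csf2rb.

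Most of the listed transcription factors known to act on oxidase genes moved in the same directions as the subunit genes. Of 15 factors, 10 rose, 0 fell and 5 did not pass in Asxl1-/-Jak2V617F against Jak2V617F cells (median 1.16). In Jak2V617F against WT cells 1 rose, 11 fell and 3 did not pass (median -1.29). Spi1, which encodes PU.1, averaged 273 ± 64.3 CPM in the Asxl1-/-Jak2V617F group and 56.9 ± 8.69 CPM in the Jak2V617F group and rose by 2.26 ± 0.16 (log2, edgeR, adjusted p = 1.64e-06). The C/EBP genes Cebpa, Cebpd and Cebpb rose by 3.26 ± 0.27, 3.16 ± 0.22 and 2.98 ± 0.25. Relative to WT, Jak2V617F cells had log2 changes of -2.08 ± 0.16 for Spi1, -3.12 ± 0.22 for Cebpd, -2.82 ± 0.26 for Cebpa and -2.21 ± 0.24 for Cebpb.

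**Figure D4:**
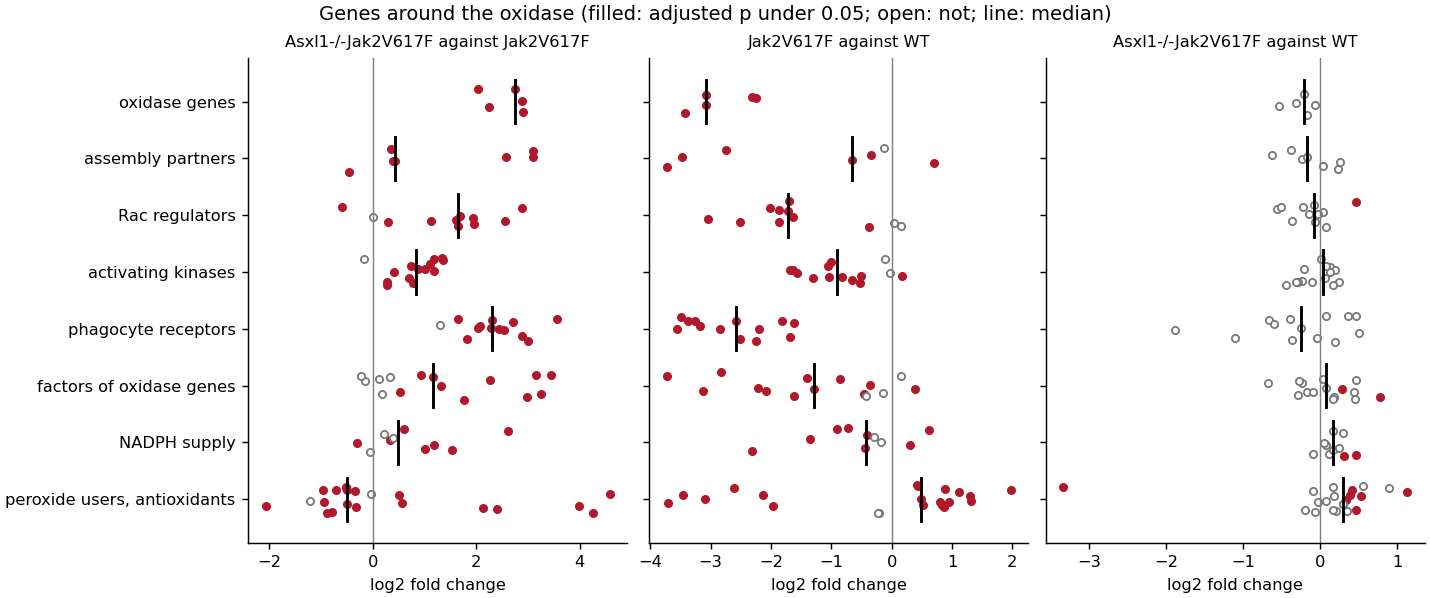
Log2 fold change of each tested gene of the oxidase set and 7 lists around it in 3 comparisons (filled: edgeR adjusted p under 0.05, vertical line: list median). The medians of the oxidase genes (2.76) and phagocyte receptors (2.31) lie farthest right in Asxl1-/-Jak2V617F against Jak2V617F, and most points are open around 0 in Asxl1-/-Jak2V617F against WT.

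The enzymes that supply the oxidase with NADPH changed less as a group. Of 10 tested, 6 rose and 1 fell in Asxl1-/-Jak2V617F against Jak2V617F cells (median 0.49), and 2 rose and 6 fell in Jak2V617F against WT cells (median -0.43). Over all genes 24.5% rose and 19.8% fell in the first comparison, and 24.4% rose and 29.2% fell in the second. The cytosolic isocitrate dehydrogenase gene Idh1 averaged 102 ± 12.9 CPM in the Asxl1-/-Jak2V617F group and 16.7 ± 0.555 CPM in the Jak2V617F group and rose by 2.62 ± 0.10 (log2, edgeR, adjusted p = 8.08e-08). The pentose phosphate dehydrogenases Pgd and G6pdx rose by 1.53 ± 0.11 and 1.02 ± 0.09, and Idh2 by 1.19 ± 0.12. The log2 changes in Jak2V617F against WT cells were -2.32 ± 0.10 for Idh1, -1.36 ± 0.11 for Pgd, -0.91 ± 0.09 for G6pdx and -0.72 ± 0.11 for Idh2.

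The list of peroxide users and antioxidants was split. Of 21 tested genes, 7 rose and 12 fell in Asxl1-/-Jak2V617F against Jak2V617F cells (median -0.49), and 13 rose and 6 fell in Jak2V617F against WT cells (median 0.49). Of all genes 24.5% rose and 19.8% fell in the first comparison, and 24.4% rose and 29.2% fell in the second. Mpo, the granule peroxidase that turns hydrogen peroxide into hypochlorous acid, averaged 9130 ± 2650 CPM in the Asxl1-/-Jak2V617F group and 477 ± 154 CPM in the Jak2V617F group and rose by 4.26 ± 0.28 (log2, edgeR, adjusted p = 9.91e-07). Prdx5 rose by 2.40 ± 0.14 and the glutathione reductase gene Gsr by 2.13 ± 0.15. Nqo1, a quinone reductase of the antioxidant response, moved the other way, with 7.02 ± 1.1 CPM in the Asxl1-/-Jak2V617F group and 29.4 ± 3.5 CPM in the Jak2V617F group, and fell by 2.07 ± 0.22 (adjusted p = 1.65e-05). Against WT, the log2 changes in Jak2V617F cells were -3.70 ± 0.27 for Mpo, -2.61 ± 0.14 for Prdx5, -1.96 ± 0.15 for Gsr and 1.98 ± 0.22 for Nqo1.

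The same lists were counted in the remaining comparisons. In Asxl1-/-Jak2V617F against WT cells 0 of 7 assembly partners, 1 of 11 Rac regulators, 0 of 14 kinase pathway genes, 0 of 13 receptors and 2 of 15 factors passed, all of them higher. In the same contrast 2 of 10 NADPH supply genes rose, and 6 of 21 peroxide users and antioxidants rose and 1 fell, where 8.30% of all genes rose and 6.76% fell. In Asxl1-/- against WT cells 6 of 10 NADPH supply genes and 9 of 21 peroxide users and antioxidants rose and none fell, where 11.3% of all genes rose. Of the other lists in that contrast, 3 of 7 assembly partners rose (Rac1, Rap1a and Prdx6), as did 1 Rac regulator and 2 kinases, 1 factor rose and 1 fell, and no receptor passed. In Asxl1-/-Jak2V617F against Asxl1-/- cells 1 receptor, 1 NADPH supply gene and 1 antioxidant gene fell and no other gene of these lists passed. Over all genes 2.22% fell and 3.31% rose in that contrast.

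Marker lists of the neutrophil lineage moved with the oxidase genes, and that of monocytes and macrophages did so in part. All 7 tested genes of the primary granule list, which also holds Ms4a3 and Nkg7, rose in Asxl1-/-Jak2V617F against Jak2V617F cells. So did all 11 late neutrophil genes, and all of both lists fell in Jak2V617F against WT cells. Of all tested genes, 24.5% rose in the first of these comparisons and 29.2% fell in the second. The primary granule list summed to 11600 to 21600 CPM in Asxl1-/-Jak2V617F libraries, 709 to 1250 in Jak2V617F, 15100 to 16100 in Asxl1-/- and 10200 to 12600 in WT libraries. The late neutrophil genes summed to 24200 to 30300 CPM in Asxl1-/-Jak2V617F libraries, 1860 to 5000 in Jak2V617F, 52200 to 54600 in Asxl1-/- and 33200 to 50300 in WT libraries. Both sums were therefore lowest in Jak2V617F, as the oxidase genes were, but the late neutrophil sum of Asxl1-/-Jak2V617F libraries lay below that of every WT library.
Among 10 genes of monocytes and macrophages, 5 rose and 0 fell in Asxl1-/-Jak2V617F against Jak2V617F cells, where 24.5% of all genes rose. In Jak2V617F against WT cells, where 29.2% of all genes fell, these 10 genes all fell. They summed to 3250 to 3610 CPM in Asxl1-/-Jak2V617F libraries, 296 to 706 in Jak2V617F, 6990 to 7310 in Asxl1-/- and 4110 to 6510 in WT libraries. In Asxl1-/-Jak2V617F against WT cells 4 of the 10 fell and 1 rose, where 6.76% of all genes fell and 8.30% rose. In Asxl1-/-Jak2V617F against Asxl1-/- cells 4 of the 10 fell and 0 rose, where 2.22% of all genes fell. No oxidase gene passed in the former contrast, and only Cyba in the latter.
The lists for dendritic and red cells ran opposite to the oxidase. Among 10 genes of dendritic cells and of MHC class II presentation, 9 fell in Asxl1-/-Jak2V617F against Jak2V617F cells, with sums of 347 to 523 CPM in Asxl1-/-Jak2V617F libraries, 2770 to 3800 in Jak2V617F, 424 to 550 in Asxl1-/- and 264 to 457 in WT libraries. Of 10 erythroid genes, 9 fell as well, with sums of 1210 to 2280 CPM in Asxl1-/-Jak2V617F libraries, 3500 to 4960 in Jak2V617F, 1400 to 1560 in Asxl1-/- and 893 to 1480 in WT libraries. Of all tested genes, 19.8% fell in that comparison.
Of the other lists in the same comparison, 6 of 8 eosinophil genes rose and 1 fell, 7 of 8 genes of mast cells and basophils rose with no fall, 4 of 8 megakaryocyte genes rose and 1 fell, and 4 of 8 stem and progenitor genes rose and 0 fell. Falls outnumbered rises for B cells (3 against 2 of 10 genes) and for T and NK cells (7 against 0 of 10). Over all genes 24.5% rose and 19.8% fell. The eosinophil genes summed to 388 to 662 CPM in Asxl1-/-Jak2V617F libraries and 40.9 to 46.1 in Jak2V617F libraries, and the mast cell and basophil genes to 261 to 319 CPM in Asxl1-/-Jak2V617F libraries and 33.2 to 57.0 CPM in Jak2V617F libraries. No tested marker was at 0 in a whole genotype. The lists of the pathway and of the markers share 4 genes, S100a8, S100a9, Mpo and Epx. The part of these cell types in the oxidase values was not tested.

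**Figure D5:**
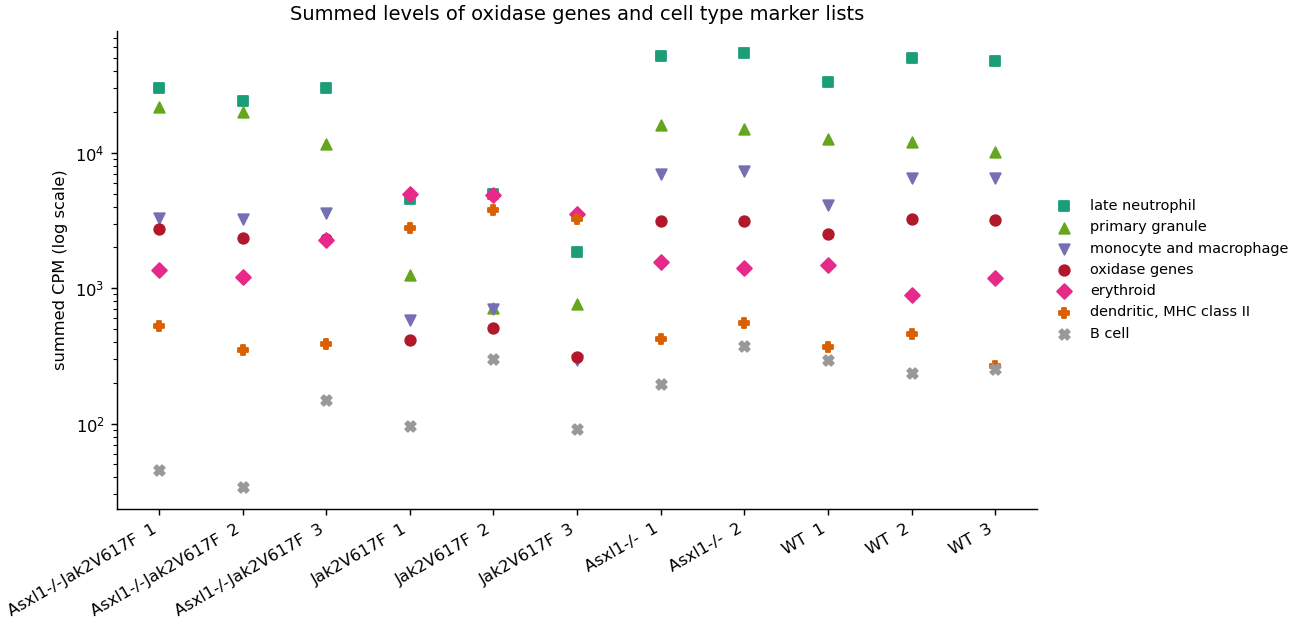
Summed CPM (log scale) of the 5 oxidase genes and of 6 cell type marker lists in each library. The oxidase sum is 312 to 512 CPM in Jak2V617F libraries and 2290 CPM or more in all others, and the granulocyte and monocyte sums dip in the same 3 libraries while the erythroid and MHC class II sums are highest there.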

How the data were processed

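RNA-seq counts of 11 libraries of c-kit+ marrow cells were used, grouped by the genotype label. Chromatin accessibility and histone mark samples were not analysed here. As deposited, the table holds unnormalised read counts for each Ensembl gene, with gene lengths and mm10 coordinates. Per the submitters' processing notes the tools include featureCounts 1.5.0-p3, HISAT2 2.0.5 and DESeq2 1.16.1, with mm10 as the genome and no roles stated. Not given in the sources used here are the strand setting, the annotation release and the handling of multiply mapped reads. All value columns were matched to a sample, so 0 were left out. Depth was 16198011 to 19196283 counts per library. Chi-square per degree of freedom between replicates was 8.44 to 37, well above sampling noise, and no libraries were merged.

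Counts were filtered with filterByExpr by genotype (16262 genes left), scaled by TMM and fitted in 1 model of all 11 libraries with edgeR 4.0.16 in R 4.3.3, by the robust quasi-likelihood test. The 5 pairwise comparisons and the interaction are contrasts of it. Benjamini-Hochberg adjustment ran over all 16262 genes, with 0.05 as the threshold, and SEs were derived from the log2 change and the F statistic. The scripts were tested on simulated data. CPM use TMM-scaled library sizes, RPKM divide CPM by the deposited gene length, and ratios use log2 CPM with a prior count of 2. Promoter windows come from RefSeq, matched by symbol (3 of 5 genes).

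The oxidase genes and all lists were chosen with earlier results of these data known. Always named are the 5 genes, Cybc1 and Rac1, with Asxl1 and Jak2 as label checks. From each other list up to 4 genes of smallest adjusted p, at a mean of at least 1 CPM, in Asxl1-/-Jak2V617F against Jak2V617F are named, with values in the first 2 comparisons, and each oxidase gene has its 3 nearest genes by profile. One gene that this rule names is not reported here and is left out of the list counts. Replicate numbers were checked for pairing, and none was seen, though so few libraries cannot settle it. Alternatives were DESeq2 1.42.0, median-of-ratios and upper-quartile scaling, no filter and a stricter filter, the compared genotypes alone, a replicate block, a sex term (from Y-linked reads) and leaving out each library. A library was left out only for contrasts that include its genotype. Only the Jak2V617F group mixes libraries with and without Y-linked reads, so the sex term is estimated within that group.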

Additional observations from a re-analysis of the deposited data

Results flagged for a closer look

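The effect of Asxl1 loss differed between the Jak2V617F and WT backgrounds for all 5 oxidase genes, by edgeR's interaction test. The log2 effect with Jak2V617F minus that on the WT background was 3.18 for Cybb, 1.65 for Cyba, 2.87 for Ncf1, 2.90 for Ncf4 and 1.81 for Rac2. The interaction was called higher for 23.7% of all tested genes. The cell type marker sums given above moved in the same libraries, and their part in these differences was not tested. The effect on the WT background sets Asxl1-/- libraries with Y-linked reads against WT libraries without them. Sex and genotype cannot be told apart in it.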

How the results depend on the processing

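All 5 rises in Asxl1-/-Jak2V617F against Jak2V617F, all 5 falls in Jak2V617F against WT and all 5 interaction calls kept their direction and side of the threshold in every alternative run. No oxidase gene passed in Asxl1-/-Jak2V617F against WT in any alternative. Counts of oxidase genes in the remaining comparisons depended on the settings. In Asxl1-/- against WT, 0 oxidase genes were higher, but 1 with DESeq2, 2 with no filter and 1 with the compared genotypes alone. In Asxl1-/-Jak2V617F against Asxl1-/-, 1 was lower, but 2 with DESeq2, 2 with no filter, 0 with the replicate block, 0 with the sex term and 0 to 1 without single libraries. Cyba there had an adjusted p of 0.0667 with the replicate block. Same-numbered libraries deviated with a correlation between -0.199 and 0.174, so no pairing was seen. The check has too few libraries per group to settle whether the numbers pair samples. The replicate block lost no other call of an oxidase gene.

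Some counts over all genes moved as well. Asxl1-/-Jak2V617F against Asxl1-/- gave 899 genes, 1467 with DESeq2, 585 with the replicate block, 52 with the sex term and 86 to 751 without single libraries, where each Asxl1-/- library then stands alone and is assumed to vary like the others. Asxl1-/- against WT gave 3664, 502 with the sex term and 288 to 4376 without single libraries. Asxl1-/-Jak2V617F against WT gave 2449 and 531 to 3493 without single libraries. The interaction gave 6764, 3079 with the sex term and 4483 to 7016 without single libraries. The sex term is estimated from Jak2V617F replicate 2 against the rest of its group. The causes were not tested.

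No value called by the test changed sign, but some values that were not called did. With upper-quartile scaling these were Asxl1 in Jak2V617F against WT (0.02) and, in Asxl1-/- against WT, Ncf1 (-0.02) and Cybc1 (-0.02). With the replicate block, Ncf1 in Asxl1-/- against WT was -0.06. With the sex term, Asxl1 in Jak2V617F against WT was 0.01. In Asxl1-/- against WT that term gave -0.51 for Ncf1 and -0.50 for Cybc1. In Asxl1-/-Jak2V617F against Asxl1-/- it gave 0.51 for Cybb, 0.35 for Ncf1, 0.31 for Ncf4 and 0.27 for Cybc1. Without single libraries, Rac2 in Asxl1-/-Jak2V617F against WT ran from -0.19 to 0.07 and Asxl1 in Jak2V617F against WT from -0.24 to 0.07. Its fall passed edgeR's test without Jak2V617F replicate 1 (adjusted p = 0.0272). In Asxl1-/- against WT, Cybc1 ran from -0.03 to 0.14 and Ncf1 from -0.03 to 0.13.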
